A study of Mus musculus with 9 samples.

Results

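The immediate early transcription factors Fos, Fosb, Fosl1, Fosl2, Jun, Junb, Jund, Egr1, Egr2 and Atf3 were followed in cultured beige adipocytes of 2 mouse strains and their hybrid. They were found by their exact gene symbol. All 10 were listed, each on 1 row, among 24013 gene symbols. The libraries were made from poly(A) RNA at day 7, and the adipocytes had been differentiated in the dish from stromal vascular cells of inguinal fat. The strains were C57BL/6J (B6), an obesity-prone strain by the series' own account, and 129X1/SvJ (129), an obesity-resistant one, and F1 are their offspring. Each group had 3 libraries. All groups had the same treatment, with no engineered allele named in the labels. Once confluent, cells were induced for 48 hours with insulin (850 nM), T3 (1 nM), rosiglitazone (1 µM), dexamethasone (1 µM), isobutylmethylxanthine (0.5 mM) and indomethacin (125 nM) in 10% serum. Afterwards only serum, insulin, T3 and rosiglitazone were kept, at those doses. The labels do not give age, sex, the direction of the cross, the time from the last medium change to harvest, or whether replicates are separate animals or dishes. The spread behind each p-value is therefore that of these libraries and may be technical.

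Immediate early genes are switched on within minutes of a signal such as serum, a growth factor or cyclic AMP, from factors that are already present in the cell, and their RNA is short-lived. Fos and Jun proteins pair through leucine zippers into the dimeric factor AP-1. Jun proteins can pair among themselves, while Fos proteins need a Jun-type partner. EGR proteins are zinc finger factors, and Atf3 is a bZIP factor that also answers the integrated stress response. In fat cell precursors this wave belongs to the first hours after induction, and Egr2 (Krox20) is known there as an early promoter of adipogenesis. Raised AP-1 activity of some members, Fosl2 among them, is known to act on adipocyte genes.

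Upstream sequence was available from RefSeq (GRCm38) for 8 of the 10 members, as the 250 bases before the annotated start. The 3 stretches shown are those of Fos, Jun and Egr2, 1 each from the Fos, Jun and EGR families. Their windows hold sites of the kind that answer cyclic AMP, AP-1 or serum signals. Capitals mark every match, on either strand, to TGACG (the core of a cyclic AMP response element, CRE), TGACATCA (an AP-1-type site), the CArG box bound by serum response factor, and TATAAA.
Fos: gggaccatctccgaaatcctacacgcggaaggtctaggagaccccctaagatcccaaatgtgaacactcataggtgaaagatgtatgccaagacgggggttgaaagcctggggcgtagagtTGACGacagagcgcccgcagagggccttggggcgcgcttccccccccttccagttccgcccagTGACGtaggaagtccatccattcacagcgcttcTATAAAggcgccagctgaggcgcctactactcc
Jun: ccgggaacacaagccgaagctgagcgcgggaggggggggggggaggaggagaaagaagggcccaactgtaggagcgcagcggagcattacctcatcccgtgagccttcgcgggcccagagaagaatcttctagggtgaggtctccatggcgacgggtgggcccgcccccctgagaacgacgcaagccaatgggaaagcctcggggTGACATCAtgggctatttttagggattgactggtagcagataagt
Egr2: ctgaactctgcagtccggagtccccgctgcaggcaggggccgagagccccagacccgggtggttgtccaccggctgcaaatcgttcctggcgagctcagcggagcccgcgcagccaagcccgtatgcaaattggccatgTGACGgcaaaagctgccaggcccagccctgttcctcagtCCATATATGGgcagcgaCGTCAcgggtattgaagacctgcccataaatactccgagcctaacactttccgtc
These are chr12:85473640-85473889 on the plus strand for Fos, chr4:95052223-95052472 on the minus strand for Jun and chr10:67537619-67537868 on the plus strand for Egr2. Counted back from the start, the Fos window held TGACG at bases 129 to 125 and 66 to 62 and TATAAA at 33 to 28. Jun had TGACATCA at 45 to 38. Egr2 had a CArG box at 72 to 63, between a TGACG at 111 to 107 and one on the other strand at 55 to 51. TGACG was held by 5 of the 8 member windows (Fos, Fosb, Junb, Egr2 and Atf3) and by 17.8% of all 32851 upstream windows of this length. The windows of Fosl2 and Jund held none of the marked sites. TGACATCA, the CArG box and TATAAA were each in 1 member window, beside 2.93%, 1.47% and 12.4% of all windows. None of the 8 windows held the full CRE TGACGTCA (1.55% of all windows), the AP-1 site TGACTCA (4.46%) or the EGR site GCGTGGGCG (0.536%). These letters are those of the reference genome, the 129 sequence was not read, and the files hold no measure of binding, so a match is a description of the gene only.

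All 10 genes were detected in every library, at low to middling levels. Depth was 19130022 to 28473083 assigned reads in the parental libraries and 39686986 to 53410947 in F1, and the members rested on 106 to 6014 reads each, apart from Fosb with 8 to 34. Levels are given as RPKM, reads per kilobase of exon and per 1000000 assigned reads, which sets genes of different length on 1 scale. Averaged over the 9 libraries, Jund led with 21.7 RPKM, above 73.3% of the 11542 genes tested. Fosl2 followed with 18.2 RPKM, Jun with 11.9, Fosl1 with 8.83, Junb with 8.50, Egr1 with 6.23, Fos with 4.76, Egr2 with 4.28 and Atf3 with 3.08, the last above 19.9% of genes. Fosb, at 0.177 RPKM, was far below the others. Jund and Fosl2 ranked first and second in each group, and their libraries overlapped in B6 and 129 and not in F1. The order below them was not the same in each group. In B6 the level of Egr1 lay above those of Fos and Egr2 without overlap, whereas in 129 the libraries of Fos, Egr1 and Egr2 overlapped in turn. Fosl1 ranked below Egr1 in B6, with overlap, and above it in 129 and F1, where it overlapped Junb. The classic serum-response genes Fos and Egr1 were not the most abundant members at this time point.

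**Figure D1:**
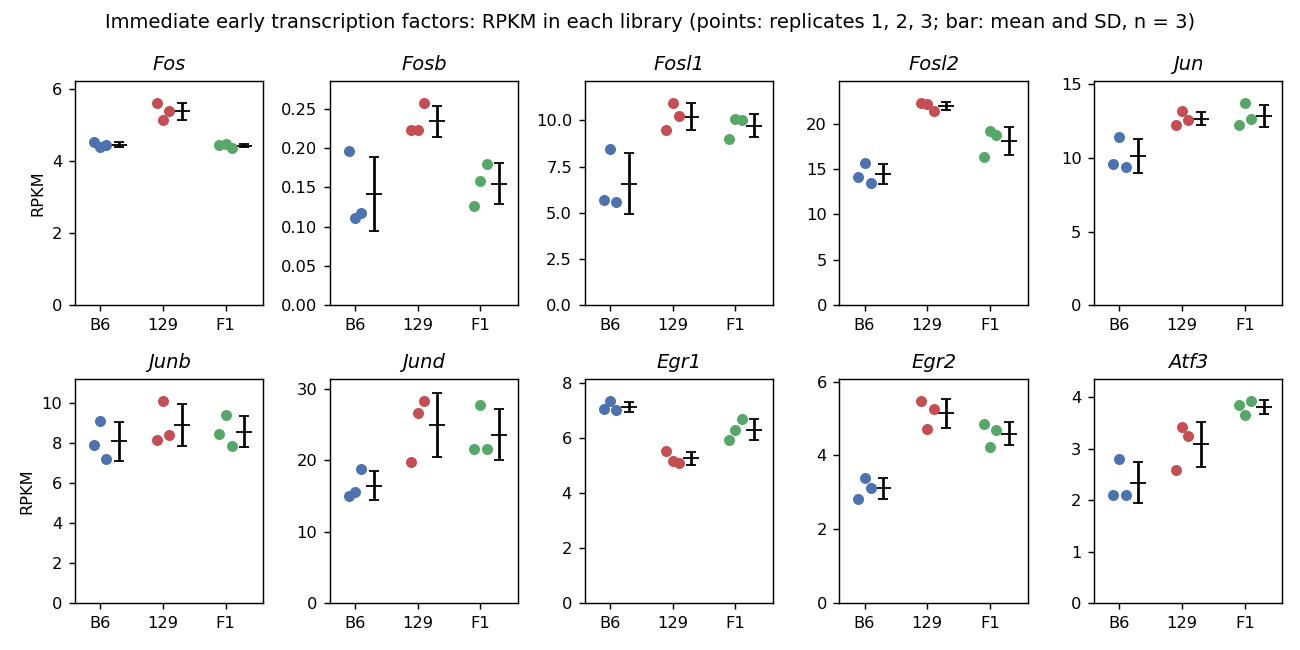
RPKM of each gene in each library, with 1 panel per gene and its own axis from 0. Points are replicates 1 to 3 of B6 (blue), 129 (red) and F1 (green), and bars are mean and SD. Fosl2 and Egr2 are higher in 129 than in B6 without overlap, Egr1 is lower, and Atf3 is highest in F1.

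Most of these factors were higher in 129 than in B6. Differences were tested with limma on log2(RPKM + 1) for genes with an RPKM of at least 1 in at least 3 libraries, with Benjamini-Hochberg adjustment over all 11542 genes and a threshold of 0.05. Of the 9 members tested, 7 were higher in 129, 1 was lower (Egr1) and 1 did not pass (Junb). Among all genes 15.9% were called higher and 21.7% lower. The median log2 fold change was 0.30 over the 9 members and -0.03 over all genes. All libraries of 129 lay above all of B6 in 6 of the 9 and below in 1, where 20.8% and 29.0% of all genes did so (49.9% in either direction). The F-test over the 3 groups called 8 of the 9, all but Junb, and 47.2% of all genes. For 1 gene with 3 libraries against 3, the smallest exact permutation p is 0.1.

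In the Fos family, the Fos-related antigens Fosl2 and Fosl1 had the largest log2 fold changes of the 3 members tested. Fosl2 (chromosome 5, 32438845 to 32460212 in mm9), which encodes Fra-2, was at 14.1, 15.6 and 13.5 RPKM in B6, with replicates given in order from 1 to 3 here and for the other genes. In 129 it was at 22.2, 22.2 and 21.4, and in F1 at 16.3, 19.2 and 18.8. The 3 groups did not overlap, with F1 in the middle. Its mean was 1.52-fold higher in 129 than in B6 (log2 fold change 0.58, SE 0.07, limma adjusted p = 6.20e-05). Fosl1 (chromosome 19, 5447698 to 5455938), which encodes Fra-1, had 5.69, 8.46 and 5.58 RPKM in B6, 9.46, 10.9 and 10.2 in 129, and 8.99, 10.1 and 10.0 in F1. B6 replicate 2 stood nearer to the lowest 129 library than to the other B6 libraries, yet no B6 library reached a 129 library. The mean was 1.55-fold higher in 129 (log2 fold change 0.58, SE 0.12, adjusted p = 0.00330). Without B6 replicate 2 the log2 fold change was 0.75 (adjusted p = 1.73e-05). Without B6 replicate 1 or 3 it was 0.50 and 0.49 (adjusted p = 0.0140 and 0.0137).

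Fos itself (chromosome 12, 86814851 to 86818219), the prototype of the family, differed less and was very even within groups. Its RPKM was 4.54, 4.40 and 4.44 in B6, 5.60, 5.13 and 5.40 in 129, and 4.44, 4.48 and 4.37 in F1. All 129 libraries lay above all others, and B6 and F1 overlapped. The mean of 129 was 1.21-fold that of B6 (log2 fold change 0.22, SE 0.04, adjusted p = 0.00262). Fosb (chromosome 7, 19888045 to 19895394), a close relative of Fos, was below the minimum level for the test. Its libraries had 0.196, 0.111 and 0.118 RPKM in B6, 0.223, 0.223 and 0.257 in 129, and 0.127, 0.159 and 0.179 in F1, with 129 above the other groups. Without the filter Fosb passed on the log2(RPKM + 1) scale for 129 minus B6 (adjusted p = 0.0300) but not with voom, limma's model for read counts, on the recovered reads (adjusted p = 0.0781), where its log2 fold change was 0.72 with an SE of 0.29.

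Summed over the 4 genes, Fos family RNA was 25.6 ± 2.63 RPKM in B6, 37.8 ± 0.644 in 129 and 32.4 ± 2.21 in F1 (SD, n = 3 each). Fosl2 was the main component in every library. It took 56.4 ± 1.56% of the sum in B6, 58.1 ± 0.990% in 129 and 55.8 ± 1.07% in F1. Fosl1 took 25.5 ± 3.59%, 27.0 ± 1.61% and 30.0 ± 0.216% in the same order, and Fos 17.5 ± 1.89%, 14.3 ± 0.820% and 13.7 ± 0.993%. The share of Fos was lower in every 129 and every F1 library than in every B6 library (exact two-sided permutation p = 0.1 for each, the smallest possible), while the shares of Fosl2 in B6 overlapped those of the other groups.

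In the Jun family, Jun and Jund differed between the strains and Junb was not shown to. Jun (chromosome 4, 94715727 to 94718913), the founding partner in AP-1, had 9.60, 11.4 and 9.38 RPKM in B6, 12.2, 13.2 and 12.6 in 129, and 12.2, 13.7 and 12.7 in F1. All libraries of 129 and F1 were above those of B6. The rise in 129 was 1.25-fold (log2 fold change 0.30, SE 0.07, adjusted p = 0.00660). Jund (chromosome 8, 73221638 to 73224515), the member that cells usually express without stimulation, had 15.0, 15.6 and 18.8 RPKM in B6, 19.8, 26.7 and 28.3 in 129, and 21.6, 27.7 and 21.6 in F1. Its groups did not overlap between B6 and 129, although 129 replicate 1 lay close to the highest B6 library. The mean rose 1.51-fold in 129 (log2 fold change 0.56, SE 0.14, adjusted p = 0.00849). Junb (chromosome 8, 87500808 to 87502647), often a brake on Jun, had 7.90, 9.09 and 7.20 RPKM in B6, 8.15, 10.1 and 8.41 in 129, and 8.44, 9.37 and 7.84 in F1. The 3 groups overlapped. Its log2 difference of 0.12 between 129 and B6 had a 95% interval from -0.08 to 0.33 (adjusted p = 0.328).

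The ratio of Jun to Junb, which does not depend on scaling between libraries, was 1.26 ± 0.0434 in B6, 1.44 ± 0.112 in 129 and 1.51 ± 0.0910 in F1. Every 129 and F1 library exceeded every B6 library in it (exact two-sided permutation p = 0.1 for each). Junb made up 23.3 ± 2.57% of summed Jun family RPKM in B6, 19.2 ± 1.83% in 129 and 19.0 ± 0.826% in F1. Jund made up 47.5 ± 5.15%, 53.3 ± 4.08% and 52.3 ± 1.96%, with overlap between the groups. Fos family RNA stood at 0.739 ± 0.0637 of Jun family RNA in B6, 0.820 ± 0.0987 in 129 and 0.723 ± 0.0639 in F1, again with overlap.

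**Figure D2:**
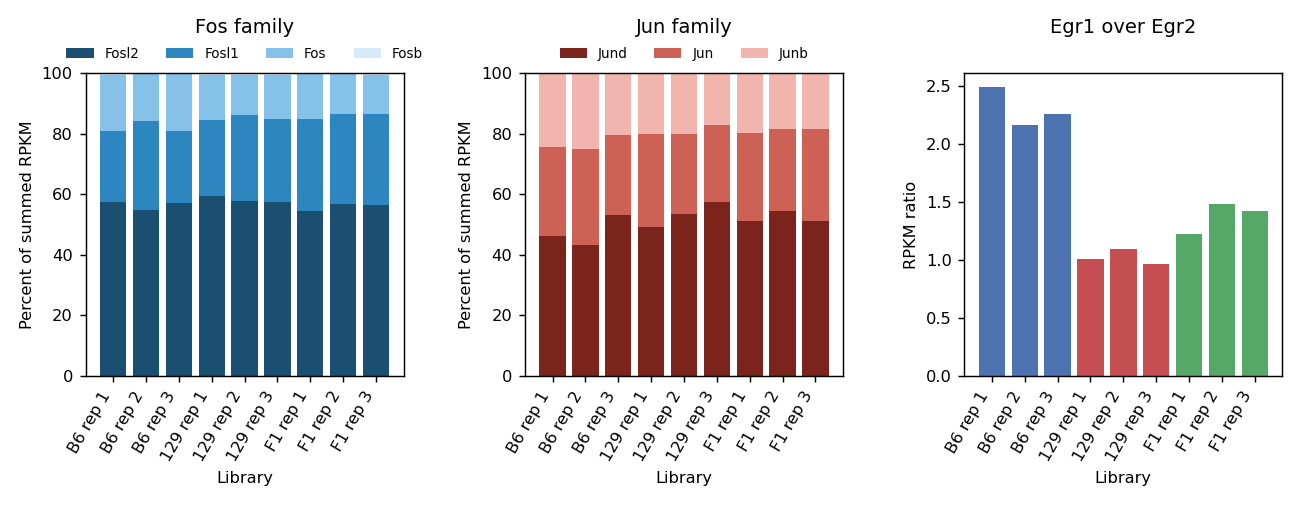
Share of each gene in the summed RPKM of the Fos and Jun families (left and middle, percent) and the ratio of Egr1 to Egr2 RPKM (right), with 1 bar per library. Fosb is under 1% and barely visible. Fosl2 and Jund are the largest parts in each bar, and the Egr1 to Egr2 ratio is 2.17 or more in B6 and at most 1.48 in 129 and F1.

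The 2 EGR genes went in opposite directions. Egr1, a zinc finger factor induced by serum and mitogens, had 7.04, 7.33 and 7.01 RPKM in B6, 5.51, 5.16 and 5.08 in 129, and 5.93, 6.28 and 6.68 in F1. It was the only member called lower in 129, at 0.736 of the B6 mean (log2 fold change -0.38, SE 0.05, adjusted p = 1.84e-04), and F1 lay between the parents without overlap. Egr2 (chromosome 10, 67000617 to 67004936) had 2.83, 3.39 and 3.11 RPKM in B6, 5.47, 4.70 and 5.25 in 129, and 4.84, 4.24 and 4.69 in F1. All 129 and F1 libraries were above those of B6. Its rise in 129 was 1.66-fold, the largest of the 9 members tested by ratio of mean RPKM (log2 fold change 0.58, SE 0.07, adjusted p = 8.58e-05). The summed level of the 2 genes ran from 9.87 to 10.7 RPKM over the B6 libraries, from 9.86 to 11.0 over those of 129 and from 10.5 to 11.4 over those of F1, so the sums overlapped. The ratio of Egr1 to Egr2 was 2.49, 2.17 and 2.26 in B6, 1.01, 1.10 and 0.968 in 129, and 1.22, 1.48 and 1.42 in F1. No group overlapped another in this ratio (exact two-sided permutation p = 0.1 for each pair).

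Atf3 (chromosome 1, 192994176 to 193007212), a stress-induced repressor and AP-1 partner, was highest in the hybrid. Its RPKM was 2.11, 2.80 and 2.10 in B6, 2.59, 3.43 and 3.24 in 129, and 3.85, 3.67 and 3.93 in F1. All F1 libraries were above all 6 parental libraries, as in 5.72% of all genes tested, and the parents overlapped. No other tested member showed this, and none had all F1 libraries below all parental ones (9.70% of all genes). The difference between 129 and B6 was 1.32-fold (log2 fold change 0.29, SE 0.10, adjusted p = 0.0333). That call was lost without B6 replicate 1 or 3 (adjusted p = 0.110 and 0.107), without 129 replicate 2 or 3 (0.120 and 0.0989), without the filter (0.0729) and in a fit of those 2 groups alone (0.0665).

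**Figure D3:**
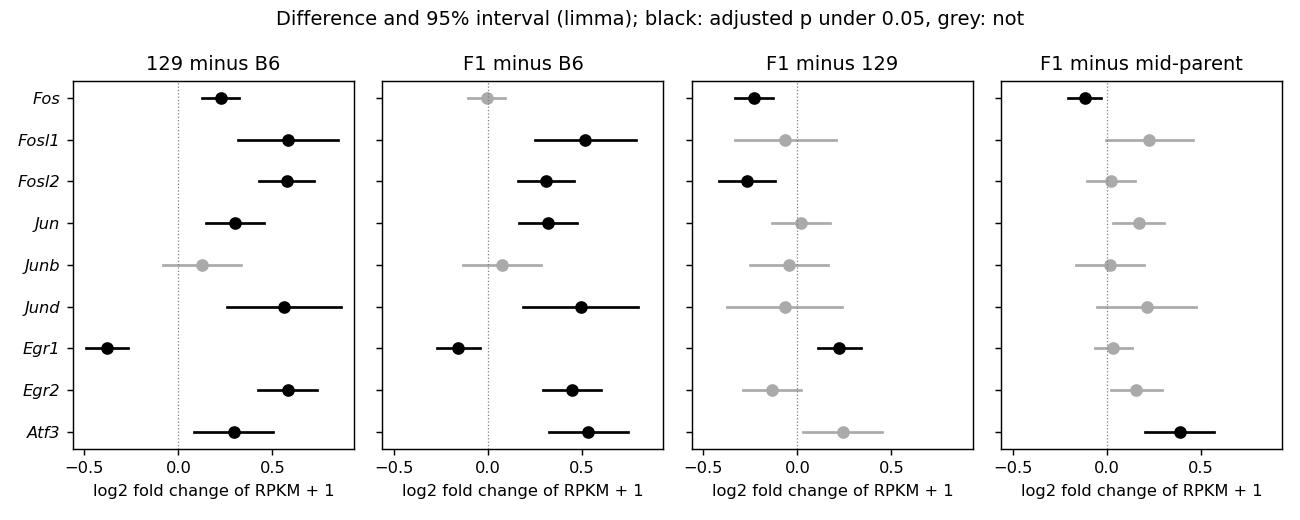
Log2 fold change on the log2(RPKM + 1) scale with its 95% interval for the 9 genes tested, in the 4 comparisons. Black marks an adjusted p under 0.05 and grey a higher one. Egr1 is the only gene left of 0 in black for 129 minus B6, and Atf3 the only gene right of 0 in black for F1 minus mid-parent.

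The hybrid was next set against each parent. These comparisons share their libraries with one another and with 129 minus B6, so their values are given side by side. Against B6, 6 members were higher in F1 (Fosl1, Fosl2, Jun, Jund, Egr2 and Atf3), 1 was lower (Egr1) and Fos and Junb did not pass, where 11.0% of all genes were called higher and 20.2% lower. F1 libraries were all above those of B6 in 6 of the 9 and all below in 1, against 16.0% and 28.2% of all genes (44.2% either way). Atf3 had the largest rise, 1.63-fold (log2 fold change 0.53, SE 0.10, limma adjusted p = 0.00190), followed by Egr2 at 1.48-fold (0.45, adjusted p = 9.14e-04) and Fosl1 at 1.48-fold (0.52, adjusted p = 0.00866). Fosl2, Jun and Jund were at 1.26-fold, 1.27-fold and 1.43-fold the B6 mean. The call for Jund (adjusted p = 0.0202) was lost without B6 replicate 1 (0.0707), without F1 replicate 2 (0.0746) and without the filter (0.0564). Egr1 was at 0.883 of B6 (log2 fold change -0.16, adjusted p = 0.0397). Its call was lost in 11 of 17 alternatives, among them the removal of any B6 library, of 129 replicate 2 or 3 and of F1 replicate 1 or 2 (adjusted p = 0.0517 to 0.120), while the log2 value stayed between -0.19 and -0.12.

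Against 129, F1 was lower in Fos (log2 fold change -0.23, SE 0.04, limma adjusted p = 0.00358) and Fosl2 (-0.27, SE 0.07, adjusted p = 0.0131) and higher in Egr1 (0.22, SE 0.05, adjusted p = 0.00880), where 12.0% of all genes were called higher and 15.7% lower (27.7% in all). F1 and 129 did not overlap in 4 of the 9, with F1 above in 2 and below in 2, against 19.8% and 24.7% of all genes (44.5% either way). The other 6 tested members did not pass. For Jun the 95% interval of the difference was -0.14 to 0.17, for Fosl1 -0.33 to 0.20 and for Egr2 -0.29 to 0.02. Atf3 was 1.23-fold higher in F1 without overlap (log2 fold change 0.24, adjusted p = 0.0864), and passed without B6 replicate 2 (0.0369) and in a fit of the 2 groups alone (0.0475).

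A gene whose hybrid level is the average of its parents on the log2 scale lies at mid-parent. Atf3 was above it by 0.39 (SE 0.08, limma adjusted p = 0.00729), and 1.41-fold above the mean of the parental RPKM. Genes called above mid-parent were 8.35% of all tested, and 14.8% were below. Fosl2 (0.02, 95% interval -0.11 to 0.15) and Egr1 (0.03, -0.06 to 0.13) were not shown to differ from mid-parent. Fos was 0.12 below it, at the edge of the threshold (adjusted p = 0.0499). That call was lost in 13 of 17 alternatives (adjusted p = 0.0513 to 0.142), including the removal of any 1 library other than 129 replicate 2. Jun was 0.17 above mid-parent (adjusted p = 0.0699), Fosl1 0.23 above (0.147) and Egr2 0.16 above (0.0905). Without B6 replicate 2 these became 0.21 (adjusted p = 0.00720), 0.31 (0.00270) and 0.18 (0.0476), and the number of members called rose from 2 to 4. Calls over all genes rose as well, from 964 above and 1712 below mid-parent to 1084 and 1964. None of Jun, Fosl1 and Egr2 passed against mid-parent when any other single library was left out.

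Replicates of a group differed by gene in how closely they matched. Fos was among the most even genes of the data, with a within-group SD of 0.03 on the log2(RPKM + 1) scale, below all but 4.53% of genes tested, and Egr1 (0.06) was below the median over all genes of 0.07. Jund (0.21) and Fosl1 (0.19) lay at the 96.7 and 95.6 percentiles, Junb (0.14) and Atf3 (0.14) at 91.1 and 90.5. B6 replicate 2 was the highest of the B6 libraries in 7 of the 9 members, all but Fos and Jund, as it was in 38.2% of all genes. It was also the shallowest library of all 9. In F1, replicate 2 was highest in 6 of 9 members, all the Fos and Jun genes tested, as it was in 31.1% of all genes, and it was the deepest library. The deviations from the group means ran together for some members. Over the 9 libraries, which share these 3 group means, their Pearson correlation was 0.95 between Fosl1 and Jun, 0.84 between Jun and Junb, 0.83 between Fosl1 and Atf3 and 0.80 between Fosl2 and Jun. Fos did not follow them, with -0.48 against Fosl1, -0.38 against Jun and -0.77 against Atf3. Jund and Egr2 followed them little, with 0.08 and 0.21 against Fosl1 and 0.20 and 0.01 against Jun. The deviations of Fos were at most 0.06, on 176 to 501 reads per library, and the part of counting error in them was not tested. Over all 36 pairs of tested members the median correlation of deviations was 0.21, with 23 pairs above 0. These are descriptions across few libraries, and the part of depth in them was not tested.

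**Figure D4:**
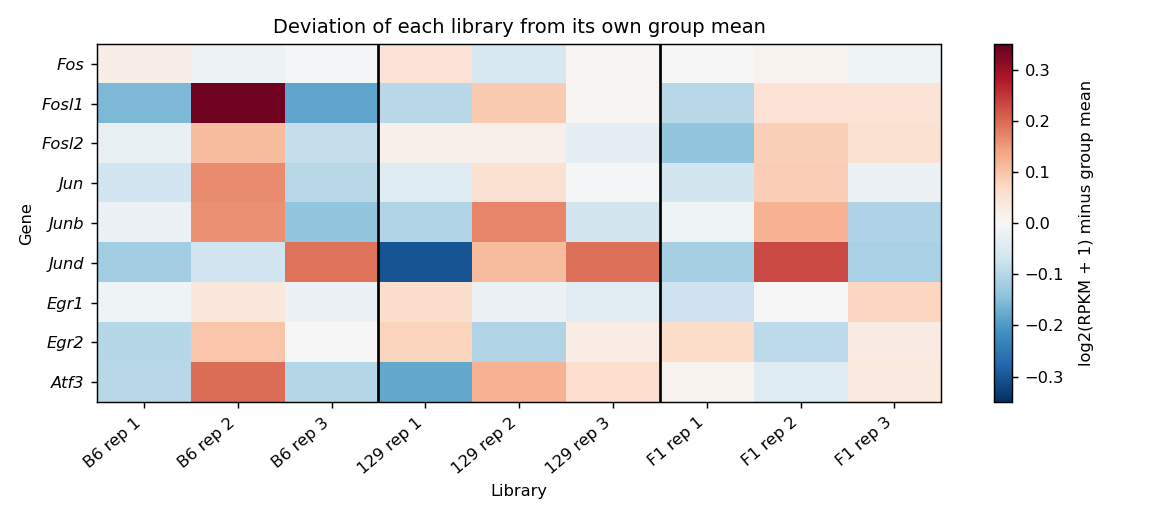
Deviation of each library (columns) from the mean of its own group for the 9 genes tested (rows), as log2(RPKM + 1) differences from blue (below) to red (above). Vertical lines part B6, 129 and F1. B6 replicate 2 is red in Fosl1, Jun, Junb and Atf3, and the Fos row stays pale.

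By Pearson correlation of log2(RPKM + 1) over the 9 libraries, the genes most like each member were named by a fixed rule, as a description. Jun and Fosl1 were among each other's 3 nearest genes (0.978), and both had Grb10, an adaptor of insulin receptor signalling (0.985 with Jun and 0.980 with Fosl1). Hilpda, a lipid droplet protein, was also near Jun (0.979), and Rgs11 near Fosl1 (0.984). Fos was nearest to Ubd, Anpep and Bcat1 (0.982 to 0.993), Fosl2 to Loxl2, Nav1 and Pou6f1 (0.983 to 0.988) and Egr1 to Thrap3, Fam63b and Pcm1 (0.990 to 0.991). Egr2 was nearest to Ptp4a2, Lyplal1 and Mreg (0.982 to 0.983), Atf3 to Sdr39u1, Gnpda1 and Mta3 (0.972 to 0.980), Jund to Ccdc85b, Spata33 and Catsper2 (0.952 to 0.966) and Junb to Cep83os, Ltbp3 and Plcb3 (0.900 to 0.943). The libraries fall into 3 groups, so these values include the differences between the groups.

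Other immediate early genes did not share one direction. Of 38 listed genes 33 were tested, and 11 were higher and 9 lower in 129 than in B6, or 60.6% called against 37.5% of all genes. Their median log2 fold change was 0.08, beside -0.03 over all genes. The matricellular genes Cyr61 and Ctgf parted. Cyr61 rose from 78.8 ± 4.52 to 110.0 ± 0.413 RPKM (log2 fold change 0.48, limma adjusted p = 1.56e-05), and Ctgf fell from 20.8 ± 0.255 to 11.1 ± 0.795 RPKM (-0.85, adjusted p = 1.48e-06). Arc, best known as a synaptic activity gene, rose from 0.809 ± 0.233 to 2.73 ± 0.0151 RPKM, while the nuclear receptor Nr4a2 fell from 1.31 ± 0.0693 to 0.326 ± 0.0321 RPKM. Id3, an inhibitor of basic helix-loop-helix factors, and the kinase Plk3 were higher in 129 (0.70 and 0.35) and F1 was below 129 in both (-0.50 and -0.42). In F1 against B6 the list had 8 higher and 7 lower (45.5% called, beside 31.2% of all genes), and in F1 against 129 it had 5 and 6 (33.3%, beside 27.7%).

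Of 19 further AP-1 and bZIP genes 14 were tested, and 3 were higher and 1 lower in 129 against B6, which is 28.6% called and below the 37.5% of all genes. Jdp2, a repressor that pairs with Jun, rose from 8.39 ± 0.0722 to 10.2 ± 0.538 RPKM in 129 (log2 fold change 0.26, limma adjusted p = 0.00174) and stood at 7.70 ± 0.335 in F1, 0.24 below mid-parent (adjusted p = 0.00275). Creb3l1, a membrane-bound bZIP factor, took the same course (0.46 in 129 minus B6, 0.20 below mid-parent in F1). Maf was lower in 129 and F1 than in B6 (-0.16 and -0.15). Atf4, the main translationally controlled factor upstream of Atf3, did not pass in 129 minus B6 (0.10, adjusted p = 0.124) and was above mid-parent in F1 (0.19, adjusted p = 0.00751). The small Maf factors Maff and Mafg passed in F1 minus B6 (0.31 and -0.18, limma adjusted p = 0.0177 and 0.0304) and not in 129 minus B6 (0.336 and 0.386).

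The kinases and factors upstream of these genes had 31 of 32 listed genes tested, with 7 higher and 6 lower in 129 against B6, which is 41.9% called and near the 37.5% of all genes. Lower in 129 were the protein kinase A subunit Prkaca (log2 fold change -0.38), the MAP kinase kinase Map2k7 (-0.33) and Elk1, a partner of serum response factor (-0.20). Mapk11 and Map3k5 were higher (0.35 and 0.26). Of 18 genes for feedback and corepressors, all tested, 7 were higher and 1 lower (44.4% called, beside the same 37.5%). The lower one was Spry4, an inhibitor of growth factor signalling, at 10.1 ± 1.14 RPKM in B6, 5.71 ± 0.211 in 129 and 5.76 ± 0.494 in F1 (limma adjusted p = 3.76e-05 for 129 minus B6). Its relative Spry2 rose in 129 (0.43), as did Zfp36l1, which promotes decay of short-lived RNA (0.68), and the MAP kinase phosphatases Dusp4 (0.35) and Dusp8 (0.31). In F1, Dusp4 and Dusp6 were below mid-parent by 0.54 and 0.39 (limma adjusted p = 0.00122 and 0.00184).

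Genes described as AP-1 targets had 18 of 23 listed members tested, with 6 higher and 4 lower in 129 against B6. That is 55.6% called, beside 37.5% of all genes. The median log2 fold change of the list was -0.04, beside -0.03 over all genes. Lower were Ccnd1, cyclin D1 (12.4 ± 0.286 to 5.18 ± 0.490 RPKM, -1.12), and Spp1, osteopontin (57.0 ± 3.68 to 15.4 ± 1.92 RPKM, -1.82). Higher were the matrix proteases Mmp2 (0.23) and Mmp3 (0.37) and the metallothioneins Mt1 and Mt2 (0.77 and 0.87). In F1 the proteases were below both parents, with Mmp2 at -0.45 against B6 and -0.69 against 129 and Mmp3 at -0.49 and -0.86, all past the threshold. In F1 against B6, 6 of the 18 were higher and 10 lower, which is 88.9% beside 31.2% of all genes.

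Many genes of the integrated stress response were higher in F1 than in B6, and fewer were higher in F1 than in 129. Of 18 listed genes 17 were tested, and 11 were higher and 1 lower in F1 than in B6 (70.6% called, beside 31.2% of all genes). Against 129, 4 were higher and 2 lower in F1 (35.3%, beside 27.7%), and against mid-parent 9 were above and 1 below (58.8%, beside 23.2%). In 129 against B6, 7 were higher and 2 lower (52.9%, beside 37.5%). Ddit3, the stress factor CHOP, had 41.8 ± 1.40 RPKM in B6, 62.6 ± 1.41 in 129 and 71.7 ± 3.55 in F1, 0.48 above mid-parent (limma adjusted p = 5.02e-05). Trib3, a pseudokinase induced with it, was 0.48 above mid-parent (adjusted p = 4.84e-04), Asns, asparagine synthetase, 0.33 (2.07e-04), Fgf21 0.31 (0.0137) and Ppp1r15a, which restores translation after stress, 0.30 (0.00533). Of these, Ddit3 and Asns were also higher in F1 than in 129 (0.19 and 0.32, limma adjusted p = 0.0117 and 3.77e-04), while Trib3 (0.15), Fgf21 (-0.15) and Ppp1r15a (-0.05) did not pass there. Xbp1 was lower in F1 than in 129 (-0.16, limma adjusted p = 0.0285) and did not pass against mid-parent (0.09, adjusted p = 0.137).

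Every listed marker of mature and thermogenic adipocytes was detected in all 9 libraries. Summed over 10 mature adipocyte genes, the B6 libraries ranged from 28449 to 32491 RPKM, the 129 libraries from 32155 to 34654 and the F1 libraries from 36197 to 38608. For 5 thermogenic genes the ranges in the same order were 214 to 238, 267 to 306 and 400.2 to 432. Both sums were highest in F1, and the parents overlapped in the first and not in the second. Fabp4, at 21330 to 32248 RPKM, made up most of the first sum and Cox7a1, at 187 to 352 RPKM, most of the second. The other thermogenic genes were lower, with Ucp1 at 9.39 to 64.4 RPKM, Cidea at 6.33 to 22.1, Ppargc1a at 5.02 to 9.05 and Dio2 at 1.94 to 2.55. The members of these 2 sums did not share a direction. Of the 10 adipocyte genes 1 was higher and 3 lower in 129 than in B6, and 4 were higher and 2 lower in F1 than in 129. Of the 5 thermogenic genes 2 were higher and 1 lower in 129 than in B6, and 3 were higher and 2 lower in F1 than in 129. Among all genes tested, 15.9% were called higher and 21.7% lower in 129 than in B6. In F1 against 129 these shares were 12.0% and 15.7%. For 6 progenitor genes the ranges were 448 to 593, 472 to 492 and 331 to 411 RPKM, and for 5 smooth muscle genes 129 to 144, 128 to 137 and 99.9 to 106. Ly6a, at 253 to 498 RPKM, made up most of the progenitor sum. Of the 5 progenitor genes tested 3 were higher and 0 lower in 129 than in B6, and 0 were higher and 4 lower in F1 than in 129. The 5 smooth muscle genes had 0 higher and 3 lower in 129 than in B6, and 0 and 2 in F1 than in 129. In F1 against B6 they had 0 higher and 5 lower, the progenitor genes 0 and 3, and the adipocyte and thermogenic genes 3 and 1 each. The 8 macrophage genes had 0 and 0 there, and the 2 endothelial genes tested 0 and 2. Among all genes 11.0% were called higher and 20.2% lower in F1 than in B6. The 8 macrophage genes, 3 of them lower in 129 than in B6, ranged over 45.7 to 58.0, 21.2 to 48.0 and 38.9 to 58.7 RPKM, and 4 endothelial genes over 4.79 to 5.51, 2.53 to 2.96 and 3.57 to 3.70. Lyz2, at 13.8 to 37.9 RPKM, was the largest part of the macrophage sum. The 5 mast cell genes summed to 2.40 to 2.75, 54.0 to 62.5 and 25.5 to 31.8 RPKM. Tpsab1, which reached 61.1 RPKM, made up most of this sum in 129 and F1. Of the 2 mast cell genes tested, 1 was higher (Tpsab1) and 1 lower (Cpa3) in 129 than in B6. The rise of the sum was therefore that of Tpsab1 and not of the list. Kit was below the minimum level for the test, and Fcer1a and Mcpt4 were at or near 0 in every library. Lymphocyte genes were near 0, at 0.158 to 0.358 RPKM summed over 4 genes. No listed marker was at 0 in all 9 libraries. The part of these cells in the differences above was not tested. In bulk RNA, fewer cells of a type and less RNA per cell cannot be told apart.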

How the data were processed

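Poly(A) RNA of 9 libraries was prepared with a stranded kit, per the labels. The deposited values were RPKM, with 1 value per gene and library. Alignment with STAR to mm9 is named in the submitters' processing notes. Those notes and the labels name no read counter, strand setting, annotation release or version, so reads of antisense or overlapping genes may be included. RPKM times exon length summed to 1000000 over the 24015 rows of each library. From the step of 1 read, whole reads were recovered for 100% of non-zero rows with a tolerance of 0.1 read. The 5 unnamed columns of each file, filled on 31 rows, were not used.

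limma 3.58.1 under R 4.3.3 was fitted to log2(RPKM + 1) with 1 mean per group and a mean-variance trend. The 11542 genes that reached an RPKM of 1 in 3 or more libraries entered. This scale understates fold changes of low genes. P-values are two-sided and adjusted by Benjamini-Hochberg over all genes tested. The fit was tested on simulated data. The simulation gave every gene the same dispersion, whereas the spread of the real genes differed. Alternatives were a pseudocount of 0.1, no filter, a filter at RPKM 5, median-of-ratios rescaling, array weights, a replicate block, voom on recovered reads, only the 2 groups compared, a linear mid-parent, and leaving out each library.

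The members and gene lists were chosen with earlier results of these data known. Named beside the 10 members are up to 6 genes per list that passed in at least 1 comparison, by the smallest F-test p, and the 3 genes most like each tested member. The values of 1 gene named by this rule are not reported here. Upstream sequences are those of RefSeq on GRCm38, with no conversion to mm9. For genes with several annotated starts, the start that gives the span nearest to that of the mm9 row was used.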

Additional observations from a re-analysis of the deposited data

How the results depend on the processing

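Of 604 values of single members under an alternative, 559 kept their side of the threshold, 33 lost it and 12 gained it. The sign changed in 17 values, over 7 results, and none of these passed the threshold in either fit. The number of members called was 6 to 8 for 129 minus B6, 5 to 7 for F1 minus B6, 3 to 4 for F1 minus 129 and 6 to 9 for the F-test over the 3 groups, beside 8, 7, 3 and 8. For F1 minus mid-parent, 2 members were called in the fit as reported, 1 without a filter, 0 with a filter at RPKM 5, and 4 with voom and 4 with array weights. Leaving out 1 library gave 1 to 4. Calls over all genes against mid-parent moved as well. The fit as reported had 964 higher and 1712 lower of 11542 tested, voom 1126 and 2000, and array weights 1233 and 2309. Without a filter, where Fosb entered, there were 856 and 1635 of 19079, and with the filter at RPKM 5 there were 843 and 1243 of 8111. The stricter filter removed Atf3 and Egr2 from the test, and 3 of its 7 members had an unadjusted limma p under 0.05. The cause of the other changes was not tested. Median-of-ratios rescaling moved the calls over all genes in 129 minus B6 from 1834 higher and 2499 lower to 2184 and 2075, in F1 minus B6 from 1270 and 2329 to 1735 and 1753, and against mid-parent from 964 and 1712 to 1298 and 1348. Correlations of deviations between same-numbered libraries of different groups ran from -0.192 to 0.215. Those between differently numbered ones ran from -0.203 to 0.231, so the replicate numbers were not taken as pairs. With a replicate block, 8 members were called for 129 minus B6, Jun passed against mid-parent (0.17, limma adjusted p = 0.0230), and Fos against mid-parent and Egr1 in F1 minus B6 no longer did. Depth limits Fosb, which rests on 8 to 34 reads per library.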
